A study of Mus musculus with 8 samples.

Results

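The genes described here are 43 genes of the skeletal muscle sarcomere and of its calcium and energy supply, measured in RNA of dorsal skin. They were taken by name as thick filament (10), thin filament (11), Z-disc and lattice (9), calcium handling (8) and energy (5) genes, and all 43 were found among the 55488 genes of each library table and among the 16908 genes that passed a filter on low counts. By textbook use, 14 of them belong to fast fibres and 9 to slow fibres, and the other 20 are shared between fibre types or also made outside skeletal muscle. Levels are given as TPM (a scale corrected for gene length and library size), and differences as log2 fold changes of knockout over wild type.

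The skin came from mice at 3 months, in 4 libraries of wild type (WT) and 4 of a knockout. The knockout lacks TPH1, the enzyme that makes serotonin outside the brain. The labels give no strain, sex, allele or treatment, and do not say that the libraries came from separate mice, so p-values measure only the spread between these libraries. Library totals ran from 20531601 to 24678638 expected counts. The Tph1 gene had 18, 0, 27 and 11 expected counts in WT replicates 1 to 4 and 0 in each knockout library, so WT replicate 2 could not be told from a knockout by this gene.

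Mouse skin carries a thin sheet of striated muscle, the panniculus carnosus, under the fat layer, and a piece of dorsal skin can hold more or less of it. In a muscle fibre, myosin heavy and light chains form the thick filament, and actin, tropomyosin and the troponins the thin filament. Calcium released through the ryanodine receptor binds troponin C to start contraction, and the SERCA pump returns it to the store. Fast and slow fibres build the same machine from different gene copies: Myh4 encodes the heavy chain of type IIb fibres, Myh1 that of IIx, Myh2 that of IIa and Myh7 the slow or type I chain, and most other parts come in a fast and a slow version as well.

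Muscle genes took up a large and uneven share of the RNA. The 43 genes held 6.09%, 13.8%, 2.46% and 11.3% of the expected counts in WT replicates 1 to 4, and 14.1%, 9.21%, 9.81% and 14.5% in knockout replicates 1 to 4. The mean was 8.40% ± 5.10 (SD) in wild type and 11.9% ± 2.78 in knockout, over 4 libraries each. The groups overlapped, and WT replicate 3 stood lowest of the 8 libraries. In bulk RNA of a tissue, fewer muscle fibres in the piece and less of these transcripts per fibre cannot be told apart.

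Acta1, the skeletal alpha-actin of the thin filament and the highest of the 43 genes, shows the pattern that most of them followed. It was at 8485, 19180.1, 2997 and 13641 TPM in WT replicates 1 to 4 and at 17347, 13174, 14510.3 and 20136 TPM in knockout replicates 1 to 4. The highest WT library was above 3 of the 4 knockout libraries, and the lowest was WT replicate 3. Its log2 fold change was 0.60 ± 0.54 (SE), with an adjusted p of 0.583 by edgeR's quasi-likelihood test, so it did not pass.

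**Figure D1:**
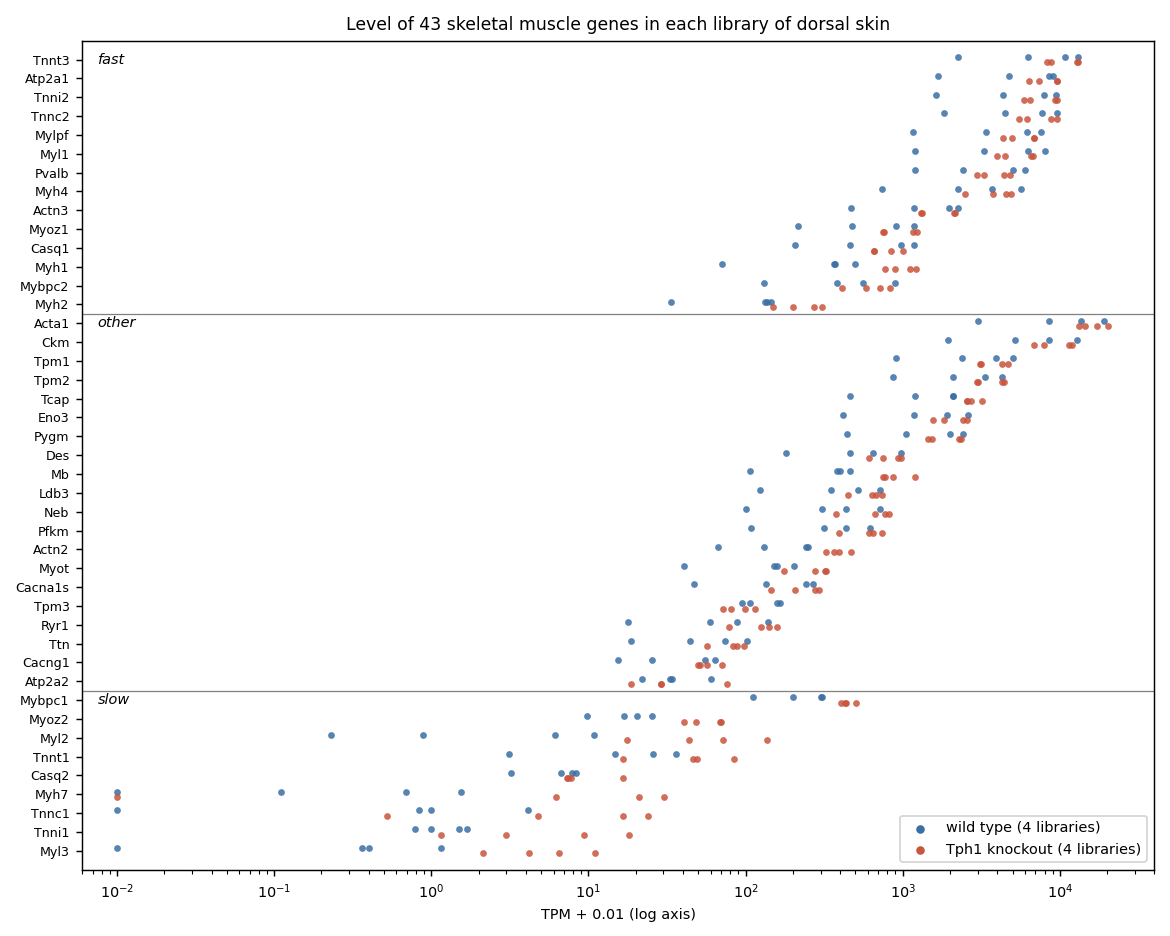
Level of each of the 43 genes in every library, in TPM + 0.01 on a log axis, with 1 point per library (blue, 4 wild type; red, 4 Tph1 knockout) and genes grouped as fast, other and slow. In most fast and shared genes the lowest blue point, WT replicate 3, lies far below the rest and the other points mix. In Myh1, Myh2, Mb, Actn2, Tcap, Myoz2, Mybpc1, Myl2 and Myl3 the red points lie to the right of all blue points.

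Over the 43 genes, 41 had a positive log2 fold change, with a median of 0.60. Over all 16908 genes tested the median was 0.03, and 53.1% were positive. None of the 43 passed at an adjusted p under 0.05 by edgeR, against a background of 0.651% of all genes called. The smallest adjusted p among them was 0.0576, for Myoz2, and none was called in any of the 8 fits that left out 1 library. At an unadjusted p under 0.05, 12 of the 43 were higher in knockout, against 8.26% of all genes, and 1 was lower, against 9.37%. By DESeq2, 8 of the 43 passed, all higher in knockout (Actn2, Myh1, Myl2, Myl3, Tnni1, Mb, Mybpc1 and Myoz2), against a background of 2.02% of all genes called higher. The median rested on single libraries: it was 0.29 without WT replicate 3, 0.96 without WT replicate 2, and 1.08 without WT replicate 2 and knockout replicate 3 together.

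The values of 7 genes did not overlap between genotypes on the CPM scale (counts relative to the scaled library size), all higher in knockout: Actn2, Myh1, Myh2, Myl2, Myl3, Mb and Myoz2. Over all genes tested, 5.39% were above in the same way. Tpm3 was the 1 gene whose knockout values all lay below the wild-type ones, against 5.65% of all genes. All 43 genes passed the filter on low counts, and 38 of them were over its minimum in all 8 libraries. The slow genes Myh7, Myl2, Myl3, Tnni1 and Tnnc1 were over it in fewer than 4 wild-type libraries. None of these 5 could pass on wild-type libraries alone, and each needed knockout libraries, the group where they are high. Myh7 and Tnnc1 were over it in 2 wild-type and 3 knockout libraries, and Tnni1 in 3 and 4. The part of these 5 genes in the counts above is no support. Over the other 38 genes alone, 36 were positive with a median of 0.56, 7 were higher at an unadjusted p under 0.05, 5 did not overlap and were higher, and DESeq2 called 5.

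Genes of other skin cells were summed in each library, as were mitochondrially encoded genes and genes that respond to handling, which mark no single cell type. The summed TPM of 10 epidermis genes was 19120 to 29941 in wild type and 10748 to 13502 in knockout; 0 of the 10 had a positive fold change and 2, Lor and Krtdap, fell by the edgeR test. The 13 mitochondrially encoded genes summed to 55912 to 111822 TPM in wild type and 131198 to 153459 TPM in knockout, all 13 with a positive fold change and 0 passing. Of 12 immediate early and heat shock genes, which respond to handling of tissue, 11 had a negative fold change and 1, Nr4a1, fell; their sum was 1140 to 7679 TPM in wild type and 672 to 2090 TPM in knockout. The 10 adipocyte genes summed to 4358 to 6234 TPM in wild type and 1569 to 5008 TPM in knockout, with 2 of 10 positive. Fibroblast genes ran from 447 to 1780 TPM in wild type and from 324 to 1238 TPM in knockout (2 of 8 positive), endothelial genes from 79.3 to 145 TPM and from 91.5 to 156 TPM (4 of 6 positive), and blood genes from 1032 to 2481 TPM and from 1357 to 4243 TPM (5 of 5 positive), with overlapping sums and 0 genes passing. The part of these groups in the muscle values was not tested.

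Other muscle types were checked by their own genes. Of 10 heart genes, 7 were under 1 TPM in every library: Myh6, Myl7, Nppa, Nppb, Mybpc3, Ryr2 and Nkx2-5. The others were found in every library. Tnnt2 was at 12.5 to 19.1 TPM in wild type and 11.2 to 20.4 TPM in knockout. Tnni3 was at 4.86 to 15.1 TPM and 3.77 to 9.17 TPM, and Myl4 at 2.77 to 8.07 TPM and 4.35 to 7.42 TPM. The 10 smooth muscle genes summed to 356 to 526 TPM in wild type and 296 to 625 TPM in knockout, far below the skeletal actin alone. The 5 embryonic and perinatal muscle genes summed to 8.09 to 72.7 TPM in wild type and 12.9 to 27.7 TPM in knockout. Of these, Myh3, the embryonic heavy chain, did not exceed 0.17 TPM in any library and Myh8, the perinatal one, did not exceed 1.55 TPM, while Actc1, the cardiac alpha-actin, ran from 4.82 to 63.7 TPM in wild type and from 6.25 to 19.1 TPM in knockout. The 9 genes of muscle stem cells and muscle regulators summed to 21.7 to 108 TPM in wild type and 78.3 to 115 TPM in knockout, and the 7 genes of the neuromuscular junction to 5.08 to 24.2 TPM and 22.5 to 30.0 TPM. All 9 and all 7 had a positive fold change, and none of them passed the test.

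To ask whether the 43 genes moved as 1 share of muscle tissue, each library was given a reference muscle level, the mean log2(CPM + 1) of 44 other skeletal muscle genes. This level was 6.58, 7.68, 5.24 and 7.39 in WT replicates 1 to 4 and 7.98, 7.08, 7.31 and 7.93 in knockout replicates 1 to 4. The mean was 6.72 ± 1.09 in wild type against 7.58 ± 0.45 in knockout (SD over 4 libraries each), with overlapping groups. Of the 44 reference genes, 43 had a positive fold change, with a median of 0.67, and 0 passed the test.

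Most of the 43 genes followed that level nearly in proportion. In a fit with genotype and the reference level together, the slope of a gene on the level (1 means that it doubles where the reference doubles) had a median of 1.03, and it lay between 0.8 and 1.25 in 31 of the 43. The SD of log2 CPM over the 8 libraries had a median of 0.97, and 0.27 once the reference level was subtracted. For the 14 fast genes the slopes ran from 0.83 to 1.21, and the median SD went from 0.96 to 0.25. For the 4 slow genes over the filter in all 8 libraries (Tnnt1, Casq2, Mybpc1 and Myoz2) the slopes ran from 0.40 to 0.74, and the median SD went from 0.94 to 0.55. For the 5 slow genes that needed knockout libraries to pass the filter the slopes ran from -1.77 to -0.34, on few wild-type counts. Their median SD went from 1.27 to 1.64. For values near 0, subtracting the reference level adds the spread of that level. The slope was negative in 7 genes: the slow genes Myh7, Myl2, Myl3, Tnni1 and Tnnc1, together with Tpm3 and Atp2a2, both of which are also made outside skeletal muscle. With SE it was -1.71 ± 1.08 for Myh7, -1.31 ± 0.40 for Myl3, -1.77 ± 0.61 for Tnnc1 and -0.24 ± 0.07 for Tpm3. It was -0.34 ± 0.74 for Myl2, -0.43 ± 0.50 for Tnni1 and -0.21 ± 0.21 for Atp2a2. In Myl2, Tnni1 and Atp2a2 the SE was as large as the slope or larger.

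**Figure D2:**
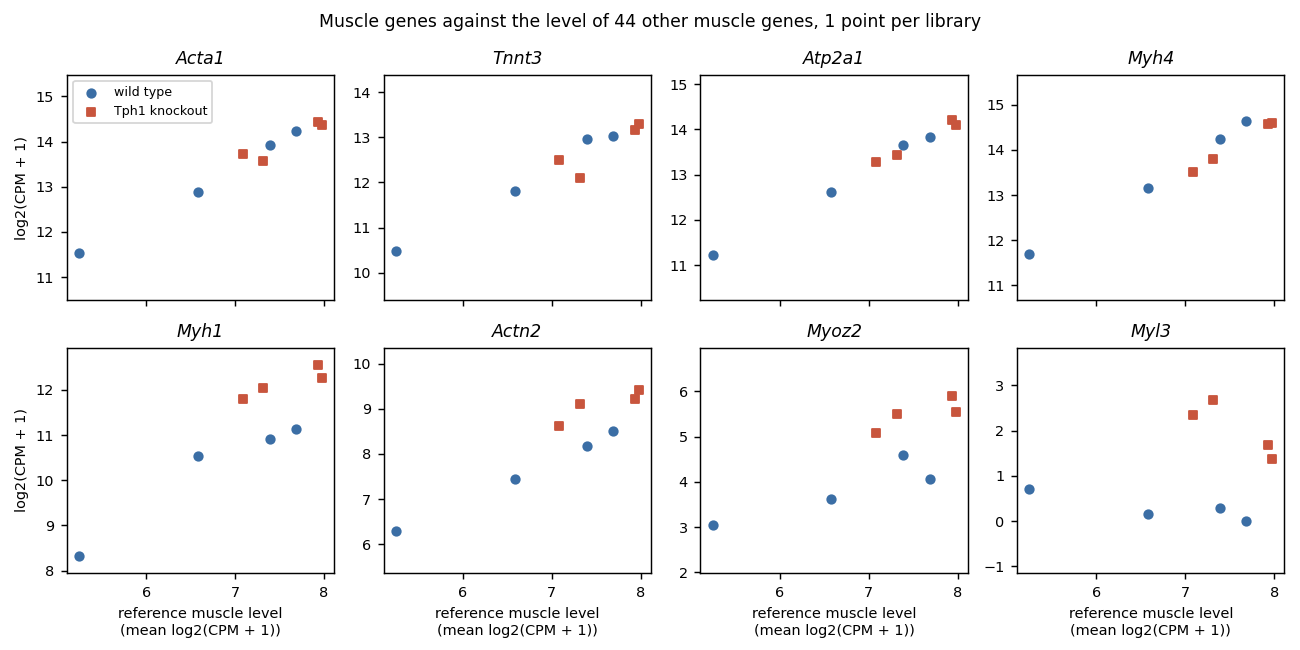
Level of 8 genes, as log2(CPM + 1) on the vertical axis, against the reference muscle level of the same library on the horizontal axis (mean log2(CPM + 1) of 44 other muscle genes), with 1 point per library (blue circles, wild type; red squares, Tph1 knockout). Acta1, Tnnt3, Atp2a1 and Myh4 lie close to 1 line through both genotypes, Myh1 and Actn2 on separate lines for the genotypes, and the Myl3 values do not rise with the level.

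Beside the reference level, the median log2 fold change of the 43 genes was -0.02, with 20 of 43 positive, and 1 gene passed the test, against a background of 0.154% of all genes. That gene was Myl3, one of the 5 that needed knockout libraries to pass the filter. Of the other 38 genes 0 were called. At an unadjusted p under 0.05, 10 of the 43 (5 of the 38) were higher in knockout, against 5.85% of all genes, and 2 were lower, Tpm3 and Casq1, against 5.71%. The median for fast genes was 0.43 by genotype alone and -0.28 beside the reference level, where 12 of the 14 were negative and Myh1 and Myh2 positive. The latter median was -0.13 without knockout replicate 3, -0.17 without WT replicate 4 and -0.15 without WT replicate 2 and knockout replicate 3 together. The 4 slow genes over the filter in all libraries had log2 fold changes of 0.58 to 1.66 by genotype alone and of 0.27 to 1.22 beside the reference level. The other 5 slow genes had 2.62 to 4.54 and 2.87 to 6.21. These 5 needed knockout libraries to pass the filter, and their values are no support. The fast median by genotype alone rested on single libraries: it was 0.12 without WT replicate 3, 0.79 without WT replicate 2, 0.66 without WT replicate 4 and 0.27 without knockout replicate 1.

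**Figure D3:**
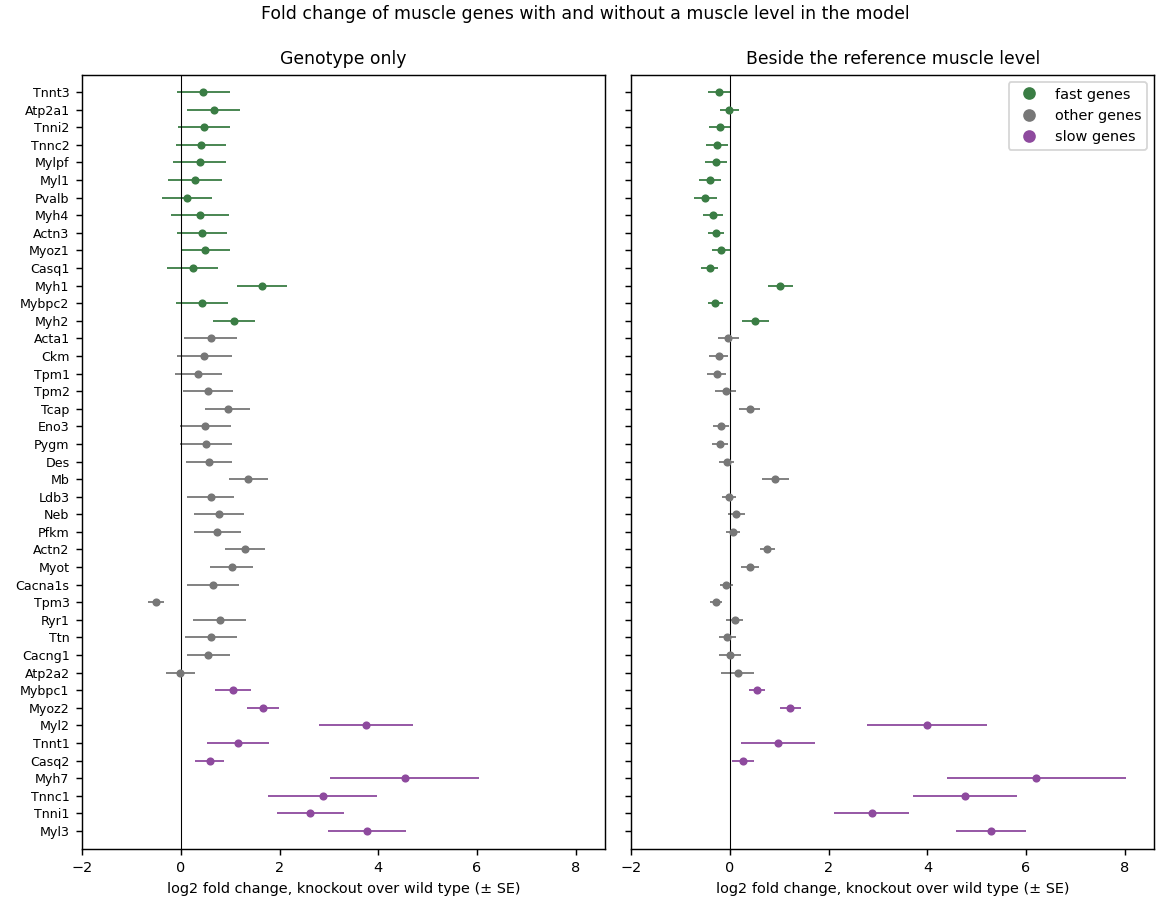
log2 fold change of the 43 genes, knockout over wild type, with its SE as bars, by genotype alone (left) and beside the reference muscle level (right), coloured by fibre class. The green (fast) points have a median of 0.43 on the left and -0.28 on the right, and Myh1, Mb, Actn2 and the purple (slow) points lie above 0 in both. The purple points of Myh7, Myl2, Myl3, Tnni1 and Tnnc1 needed knockout libraries to pass the filter and are no support.

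The thick filament was led by fast fibre genes. Mylpf, the fast regulatory light chain, had the highest mean TPM of them over the 8 libraries, though in wild type the mean of Myl1 was higher, with 4709 against 4597 TPM. Mylpf was at 3413, 7589, 1162 and 6223 TPM in WT replicates 1 to 4 and at 6852, 4986, 4321 and 6816 TPM in knockout replicates 1 to 4. Its groups overlapped (log2 fold change 0.39 ± 0.54, adjusted p = 0.734 by edgeR). Myl1, the fast essential light chain, spanned 1204 to 8041 TPM in wild type and 3963 to 6780.0 TPM in knockout. Mybpc2, the fast myosin binding protein C, spanned 130.4 to 887 TPM in wild type and 408 to 831 TPM in knockout.

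Control regions of the 3 fast heavy chain genes, neighbours on chromosome 11, are shown here as reference sequence, the same for every library. These 3 genes did not keep a fixed ratio between libraries, and a part of these sequences in that was not tested. Myl3 is shown as the gene called beside the reference level. Each line is the stretch from 250 to 51 bases before the RefSeq start, on GRCm38.p6, plus strand, 5′ to 3′. Capitals mark matches to 3 muscle promoter motifs: CAGCTG, an E-box form bound by the MyoD family, the MEF2 motif and the CArG box of serum response factor.
Myh4, chr11:67237562-67237761: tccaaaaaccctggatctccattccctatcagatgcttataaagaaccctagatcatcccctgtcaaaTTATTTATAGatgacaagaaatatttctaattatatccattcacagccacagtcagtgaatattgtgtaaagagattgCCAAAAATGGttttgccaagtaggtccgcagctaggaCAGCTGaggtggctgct
Myh1, chr11:67199852-67200051: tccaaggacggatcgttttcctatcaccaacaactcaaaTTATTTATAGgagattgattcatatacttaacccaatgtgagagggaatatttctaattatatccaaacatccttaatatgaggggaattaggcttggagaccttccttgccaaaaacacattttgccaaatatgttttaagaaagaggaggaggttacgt
Myh2, chr11:67170777-67170976: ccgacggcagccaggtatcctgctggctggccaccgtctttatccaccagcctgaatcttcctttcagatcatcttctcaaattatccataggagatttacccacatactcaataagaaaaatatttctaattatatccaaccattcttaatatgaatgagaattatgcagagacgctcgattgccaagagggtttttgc
Myl3, chr9:110763428-110763627: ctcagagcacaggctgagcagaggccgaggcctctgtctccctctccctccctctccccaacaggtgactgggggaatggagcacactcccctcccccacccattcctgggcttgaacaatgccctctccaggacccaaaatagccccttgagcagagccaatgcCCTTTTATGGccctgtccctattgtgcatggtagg

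The Myh4 window held 1 match to each of the 3 motifs, in the order MEF2, CArG and CAGCTG. Myh1 held 1 MEF2 match, Myl3 held 1 CArG match, and Myh2 held none, which says only that these letters are not in that window. All 3 motifs read the same on both strands, and the matches printed do not overlap each other. CAGCTG was found in 10.3% of 32851 windows of this length and in 13 of the 34 members with a window, the MEF2 motif in 2.42% and in 5 of 34, and the CArG box in 1.16% and in 4 of 34. The background counts windows, whereas a member counts once if any of its windows matches, so the rates differ in unit. A match describes the sequence and does not show that a factor binds there.

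Myh4 (GRCm38 chromosome 11, 67238029 to 67260446, plus strand) was at 2256, 5669.7, 734 and 3727 TPM in WT replicates 1 to 4 and at 4521, 2493, 3749 and 4898 TPM in knockout replicates 1 to 4. Its knockout range lay within the wild-type range (log2 fold change 0.39 ± 0.59, adjusted p = 0.758 by edgeR). Myh1 (chromosome 11, 67200052 to 67224575, plus strand) was at 367, 496, 71.2 and 371 TPM in wild type and at 899.7, 768, 1107 and 1212 TPM in knockout. Every knockout library was above every wild-type library for this IIx chain. Its log2 fold change was 1.65 ± 0.51 by genotype alone (adjusted p = 0.159 by edgeR) and 1.02 ± 0.25 beside the reference level (adjusted p = 0.205 by edgeR). Neither passed, while DESeq2 gave 1.65 with an adjusted p of 0.00818. Myh1 shares exon bases with the antisense gene Myhas, whose mean was 41.8 CPM against 3081 CPM for Myh1. Myhas had a log2 fold change of 1.29 (adjusted p = 0.219 by edgeR), of the same sign as that of Myh1. Of the 43 genes, 19 share exon bases with another gene.

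Myh2 (chromosome 11, 67171027 to 67197517, plus strand), the IIa chain, was at 145, 137, 33.5 and 134 TPM in wild type and at 199, 150.4, 306 and 272 TPM in knockout. The groups did not overlap, but the highest wild-type and lowest knockout libraries were close. Its log2 fold change was 1.08 ± 0.42 (adjusted p = 0.231 by edgeR), and 0.51 ± 0.28 beside the reference level (adjusted p = 0.522 by edgeR). Myh7 (chromosome 14, 54970684 to 54994626, minus strand), the slow chain, was at 0.10, 0, 1.54 and 0.68 TPM in wild type and at 0, 21.0, 30.1 and 6.25 TPM in knockout. It was high in 3 knockout libraries and at 0 in knockout replicate 1, so the groups overlapped (log2 fold change 4.54 ± 1.51, adjusted p = 0.194 by edgeR).

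Within the summed TPM of these 4 heavy chain genes, the share of Myh4 was 81.5%, 89.97%, 87.3% and 88.1% in WT replicates 1 to 4 and 80.4%, 72.6%, 72.2% and 76.7% in knockout replicates 1 to 4. Its lowest wild-type library was just above its highest knockout library. The Myh1 share was 13.2%, 7.87%, 8.48% and 8.77% in wild type and 16.01%, 22.4%, 21.3% and 19.0% in knockout, again without overlap. As means, Myh4 held 86.7% ± 3.65 in wild type and 75.5% ± 3.86 in knockout, and Myh1 held 9.59% ± 2.47 and 19.7% ± 2.82 (SD, n = 4). Myh2 held 3.64% ± 1.307 and 4.52% ± 0.98, and Myh7 0.051% ± 0.089 and 0.322% ± 0.319, both with overlapping groups. These shares were computed after the levels had been seen and are given as a description, with no test. RSEM divides reads that match several genes, and the heavy chains are close in sequence, so the shares rest on that division.

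**Figure D4:**
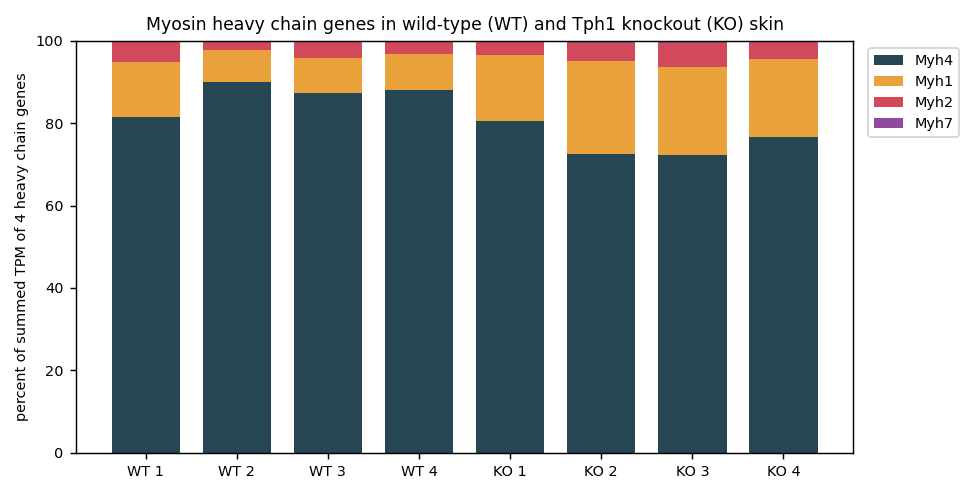
Share of each of 4 myosin heavy chain genes in their summed TPM, in percent, with 1 bar per library (WT, wild type; KO, Tph1 knockout) stacked to 100. Myh4 takes 81.5% to 89.97% of the wild-type bars and 72.2% to 80.4% of the knockout bars, and Myh1 takes 7.87% to 13.2% and 16.01% to 22.4%.

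The slow light chains were low in wild type and uneven in knockout. Myl2, the slow regulatory light chain, was at 0.88, 0.22, 6.13 and 10.8 TPM in WT replicates 1 to 4 and at 17.5, 72.1, 138 and 43.7 TPM in knockout replicates 1 to 4. All knockout libraries were above all wild-type ones (log2 fold change 3.75 ± 0.95, adjusted p = 0.112 by edgeR). Myl3, the slow essential light chain (chromosome 9, 110741861 to 110769798, plus strand), had 3, 0, 14 and 5 expected counts in wild type and 34, 98, 124 and 49 in knockout. In TPM these were 0.39, 0, 1.15 and 0.35 in wild type and 2.11, 6.45, 11 and 4.19 in knockout, again without overlap.

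Myl3 had a log2 fold change of 3.77 ± 0.79 by genotype alone (adjusted p = 0.0716 by edgeR) and 5.29 ± 0.71 beside the reference level (adjusted p = 0.0310 by edgeR). It was over the filter on low counts in 1 wild-type and 4 knockout libraries, so it was tested only through the group where it is high. This call held in 3 of the 8 fits that left out 1 library: without WT replicate 1, WT replicate 2, or knockout replicate 1, 2 or 4 it was lost, with adjusted p of 0.0689, 0.213, 0.0780, 0.213 and 0.108 by edgeR. The Myl3 gene shares exon bases with Pth1r, a hormone receptor gene on the opposite strand, and the library kit does not mark strand. Pth1r was at 9.86 to 19.7 CPM in wild type and at 5.55 to 10.5 CPM in knockout, with a negative log2 fold change (-0.86, adjusted p = 0.159 by edgeR), opposite in sign to that of Myl3.

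Mybpc1, the slow form of myosin binding protein C and the slow gene with the highest TPM, was at 200.3, 302, 111 and 306 TPM in wild type and at 435, 404, 428 and 503 TPM in knockout. Its TPM values did not overlap but its CPM values did (log2 fold change 1.05 ± 0.36, adjusted p = 0.201 by edgeR). It made up most of the summed TPM of the slow genes, which was 282.8 ± 109 in wild type against 666 ± 121 in knockout (SD over 4 libraries each). Without Mybpc1 the sum was 52.9 ± 19.5 TPM and 223 ± 124 TPM. The fast genes summed to 45727 ± 27520.0 TPM and 58646 ± 13579 TPM, so slow genes were 0.739% ± 0.305 of the fast and slow sum in wild type and 1.19% ± 0.44 in knockout. The groups overlapped, at 0.494% to 1.18% in wild type and 0.748% to 1.76% in knockout. Without Mybpc1 the share was 0.156% ± 0.115 and 0.426% ± 0.311, again with overlap. The slow sums include Myh7, Myl2, Myl3, Tnni1 and Tnnc1, which needed knockout libraries to pass the filter and are no support.

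In the thin filament, the fast troponins followed the muscle share. Tnnt3, fast troponin T, was at 6317, 12962, 2244 and 10839.5 TPM in WT replicates 1 to 4 and at 12898, 8821, 8271 and 13073 TPM in knockout replicates 1 to 4. WT replicates 2 and 4 lay within the knockout range and WT replicates 1 and 3 below it (log2 fold change 0.46 ± 0.53, adjusted p = 0.677 by edgeR). Tnni2 and Tnnc2, fast troponins I and C, had log2 fold changes of 0.47 ± 0.53 and 0.41 ± 0.51, and slopes on the reference level of 1.10 and 1.04. Nebulin, the ruler of the thin filament encoded by Neb, ran from 101.2 to 719 TPM in wild type and from 374 to 818 TPM in knockout. Tpm1 and Tpm2, the tropomyosins of fast and mixed muscle that smooth muscle also makes, had log2 fold changes of 0.35 ± 0.48 and 0.55 ± 0.51.

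The slow troponins showed the knockout pattern of the slow light chains, with knockout replicate 3 highest and knockout replicate 1 lowest of the knockout libraries. Tnnt1, slow troponin T, was at 3.12, 36.3, 14.7 and 25.8 TPM in wild type and at 16.7, 49.3, 84.3 and 46.5 TPM in knockout. Tnni1, slow troponin I, was at 0.98, 0.78, 1.49 and 1.67 TPM in wild type and at 1.15, 9.30, 18.1 and 2.96 TPM in knockout. Tnnc1, the troponin C of slow and heart muscle, was at 0.82, 0, 4.13 and 0.98 TPM in wild type and at 0.51, 16.7, 24.1 and 4.77 TPM in knockout. In each of these 3 genes knockout replicate 1 lay within the wild-type range, so the groups overlapped, and none passed (log2 fold changes 1.16 ± 0.63, 2.62 ± 0.68 and 2.87 ± 1.10, adjusted p of 0.359, 0.117 and 0.226 by edgeR).

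Tpm3, the slow tropomyosin gene, whose other products are made in many cell types, went the other way. It was at 165, 107, 159 and 94.4 TPM in wild type and at 71.9, 98.7, 115 and 81.15 TPM in knockout. The groups overlapped in TPM and did not in CPM, and its log2 fold change was -0.50 ± 0.16 (adjusted p = 0.163 by edgeR). Its slope on the reference level was -0.24, against 1.08 for Acta1.

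At the Z-disc, which anchors the thin filaments, the fast alpha-actinin Actn3 was at 1187, 2239, 472 and 1959 TPM in WT replicates 1 to 4 and at 2141, 1329, 1301 and 2136 TPM in knockout replicates 1 to 4. Its groups overlapped (log2 fold change 0.43 ± 0.51, adjusted p = 0.680 by edgeR). Actn2 (chromosome 13, 12269426 to 12340760, minus strand), the alpha-actinin of all striated fibres, was at 131, 249.98, 66.6 and 243 TPM in wild type and at 469, 363, 327 and 391 TPM in knockout. Every knockout library was above every wild-type one. Its log2 fold change was 1.295 ± 0.41 by genotype alone (adjusted p = 0.168 by edgeR) and 0.75 ± 0.15 beside the reference level (adjusted p = 0.122 by edgeR), and neither passed.

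Myoz2 (chromosome 3, 123006206 to 123035015, minus strand), the slow and cardiac form of the calcineurin-binding calsarcins, came closest to the threshold by genotype alone. It was at 16.95, 20.2, 9.78 and 25.3 TPM in wild type and at 48.6, 40.8, 68.5 and 69.7 TPM in knockout, with a clear gap between the groups. Its log2 fold change was 1.66 ± 0.32 (adjusted p = 0.0576 by edgeR), and 1.22 ± 0.21 beside the reference level (adjusted p = 0.0878 by edgeR). In the authors' deposited normalized matrix, tested with limma, it was 1.75 with an adjusted p of 0.0407, the 1 gene of the 43 that passed there, against a background of 0.552% of all genes. Myoz1, its fast counterpart, spanned 216 to 1188 TPM in wild type and 746 to 1227 TPM in knockout, with overlapping groups. Tcap, which ties titin to the Z-disc, spanned 465 to 2105 TPM in wild type and 2559 to 3214 TPM in knockout, apart in TPM but overlapping in CPM. Titin itself (Ttn), desmin (Des), Ldb3 and myotilin (Myot) overlapped between genotypes, with log2 fold changes of 0.61, 0.57, 0.60 and 1.03.

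Of the 8 calcium genes, 7 had a positive fold change, with a median of 0.57, and in none were the genotypes apart. Atp2a1, the fast SERCA pump, was at 4772, 8569, 1685 and 8988 TPM in WT replicates 1 to 4 and at 9591, 7364, 6388 and 9586 TPM in knockout replicates 1 to 4 (log2 fold change 0.66 ± 0.54, adjusted p = 0.540 by edgeR). Beside the reference level it was -0.01 ± 0.19. Casq2, the slow and cardiac calsequestrin that holds calcium in the store, was at 7.90, 8.35, 3.21 and 6.70 TPM in wild type and at 7.74, 7.44, 16.6 and 7.25 TPM in knockout. Only knockout replicate 3 stood above the wild-type range for Casq2, and its log2 fold change was 0.58 ± 0.29 (adjusted p = 0.321 by edgeR).

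Ryr1, the calcium release channel, and Cacna1s and Cacng1, subunits of the voltage sensor that opens it, had log2 fold changes of 0.78 ± 0.53, 0.64 ± 0.53 and 0.56 ± 0.44. Parvalbumin (Pvalb), the calcium buffer of fast fibres, had the lowest value of the fast genes, 0.13 ± 0.51 by genotype alone and -0.50 ± 0.23 beside the reference level. Casq1, the fast calsequestrin, was 0.25 ± 0.52 and -0.41 ± 0.17 (adjusted p = 0.416 by edgeR in the latter). Atp2a2, the slow SERCA pump that non-muscle cells also make, was at 60.7, 33.9, 32.9 and 21.95 TPM in wild type and at 18.5, 28.85, 76.4 and 29.0 TPM in knockout. Its fold change was -0.01 ± 0.29, and its sign turned to 0.014 with upper quartile scaling and to 0.029 with effective length offsets.

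Among the 5 energy genes, myoglobin stood apart from the enzymes. Mb (chromosome 15, 77015487 to 77050670, minus strand), the oxygen store of oxidative fibres, was at 401, 384, 107 and 462 TPM in WT replicates 1 to 4 and at 752, 771, 1191 and 864 TPM in knockout replicates 1 to 4. Every knockout library was above every wild-type one. Its log2 fold change was 1.37 ± 0.39 by genotype alone (adjusted p = 0.139 by edgeR) and 0.92 ± 0.27 beside the reference level (adjusted p = 0.276 by edgeR). Mb shares exon bases with Apol6 and Gm49540 on the opposite strand, at means of 42.1 and 10.8 CPM against 386 CPM for Mb. Their log2 fold changes were -0.02 and 1.48 (adjusted p of 0.974 and 0.234 by edgeR). Ckm, the muscle creatine kinase, was at 5194, 12837, 1931 and 8568 TPM in wild type and at 11417, 6896, 7929 and 11937 TPM in knockout, with overlapping groups. Eno3, Pygm and Pfkm, enzymes of glycolysis and glycogen breakdown, had log2 fold changes of 0.50, 0.51 and 0.74 by genotype alone and -0.19, -0.21 and 0.07 beside the reference level.

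Fast and slow copies were then set against each other within each library. The amount of muscle cancels in such a ratio only where both genes come from muscle fibres alone. The ratio still moves with the mix of fast and slow fibres. The log2 ratio of the fast over the slow gene (TPM + 0.01) was lower in knockout in 10 of 11 pairs. Actn2 and Atp2a2, of the shared class, stood as the slow copy of theirs. The lower pairs include those with Myh7, Myl2, Myl3, Tnni1 and Tnnc1, which needed knockout libraries to pass the filter and are no support. Of the remaining pairs, those with Mybpc1, Tnnt1, Actn2, Myoz2 and Casq2 were lower and that with Atp2a2 was higher. All pairs come from the same libraries and are not separate evidence. By an exact two-sided permutation test over 70 assignments, which cannot give a p below 0.0286, 0 of 11 pairs had an adjusted p under 0.05. The 1 pair without overlap was Actn3 over Actn2, at 3.18, 3.16, 2.83 and 3.01 in WT replicates 1 to 4 and at 2.19, 1.87, 1.99 and 2.45 in knockout replicates 1 to 4. It was lower by 0.92 in mean in the knockout (exact p = 0.0286, adjusted p = 0.210 over 11 pairs).

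Ratios with a slow gene near 0 depend on the added 0.01 and on WT replicate 2, in which Myh7, Myl3 and Tnnc1 were at 0. Mylpf over Myl2 was 10.9 ± 3.27 in wild type against 6.74 ± 1.56 in knockout (SD, n = 4; exact p = 0.0571, adjusted p = 0.210). Myl1 over Myl3 was 14.2 ± 4.01 and 10.04 ± 1.37 (SD, n = 4; exact p = 0.0857, adjusted p = 0.236). Its difference of -4.14 was -1.63 with TPM + 1 and -2.33 without WT replicate 2. Myoz1 over Myoz2 was 5.08 ± 0.60 and 4.09 ± 0.46 (SD, n = 4; exact p = 0.0571, adjusted p = 0.210). In these 3 pairs the groups overlapped. For Myh4 over Myh7 the ratio was 13.7 ± 4.26 in wild type against 10.6 ± 5.63 in knockout (SD, n = 4; exact p = 0.371, adjusted p = 0.440). Its difference of -3.12 was -1.87 with TPM + 1, -1.31 without WT replicate 2, -4.72 without WT replicate 3, -5.86 without knockout replicate 1, and -1.89 and -1.92 without knockout replicates 2 and 3.

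The troponin ratios overlapped as well. The differences, knockout minus wild type, were -0.90 for Tnnt3 over Tnnt1, -1.38 for Tnni2 over Tnni1 and -3.15 for Tnnc2 over Tnnc1 (exact p of 0.400, 0.314 and 0.314, each with an adjusted p of 0.440). With TPM + 1 the last 2 were -0.87 and -1.37, and without WT replicate 2 they were -0.86 and -1.03. The Tnni2 over Tnni1 difference was -2.19 without knockout replicate 1 and -0.63 without knockout replicate 3, and that of Tnnt3 over Tnnt1 ran from -1.45 to -0.19 with 1 library left out. Mybpc2 over Mybpc1 differed by -0.42 (exact p = 0.257, adjusted p = 0.440; -0.65 to -0.20 with 1 library left out) and Casq1 over Casq2 by -0.14 (exact p = 0.857, adjusted p = 0.857). Atp2a1 over Atp2a2 was the 1 ratio that was higher in knockout, by 0.78 (exact p = 0.343, adjusted p = 0.440), and by 0.29 to 1.301 with 1 library left out.

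**Figure D5:**
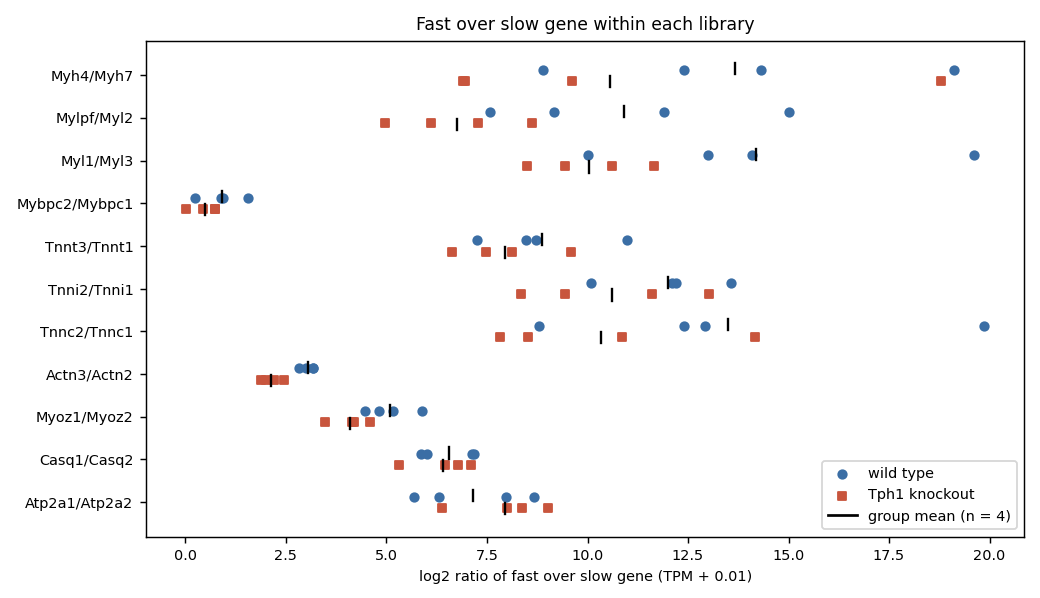
log2 ratio of the fast over the slow gene within each library (TPM + 0.01), with 1 point per library (blue circles, wild type; red squares, Tph1 knockout) and the group mean as a black bar (n = 4). The red points of Actn3/Actn2 all lie below the blue ones, and the groups overlap in the other 10 pairs.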

How the data were processed

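Per the labels, total RNA of dorsal skin was extracted with a Qiagen column kit, and libraries came from the NEBNext Ultra RNA kit. That kit keeps no strand information. STAR 2.7.6a, RSEM 1.31, DESeq2, DESeq and GRCm38 appear, without roles, in the submitters' processing notes, and the labels name Ensembl release 101.

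The deposited expected counts, per the file headers, are RSEM's estimates of reads per gene, which divide multi-mapping reads. The deposited TPM values are scaled to effective length and library, per the file headers. The deposited FPKM values, another length-scaled unit per the file headers, were not used. The authors' matrix holds a normalized signal, called DESeq2-normalized in the labels; it entered 1 alternative. Deposited effective lengths entered another.

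Expected counts were rounded, then compared by edgeR 4.0.16 under R 4.3.3 (filterByExpr, minimum count 10 and minimum total 15; TMM; robust quasi-likelihood F test; Benjamini-Hochberg), by genotype alone and beside the reference muscle level. A gene passed at an adjusted p under 0.05. Alternatives used DESeq2 1.42.0, limma 3.58.1, other scalings and filters and left-out libraries. The script was tested on simulated data.

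The members and lists were chosen with earlier results of these data known. Per-library values were to be given for members that passed and for the fast and slow gene with the highest mean TPM in each role; those of Acta1, Ckm, Mb, Actn2, Tpm3, Atp2a2, the heavy chains, Myl2, Tnni1 and Tnnc1 were added after values were seen, as were the slope limits of 0.8 and 1.25. Replicates are numbered in record order. Coordinates are from GENCODE M21 on GRCm38 and promoters from RefSeq on GRCm38.p6, which held 34 of the 43 genes.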

Additional observations from a re-analysis of the deposited data

Results flagged for a closer look

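Of 86 groups of 4 libraries tested, 1 held a library far from the others: Myh2 in wild type, where replicate 3 was at 7.24 on the log2(CPM + 1) scale and the other 3 at 9.20 to 9.42. The gap to the nearest library was 0.896 of the whole range, above Dixon's 95% critical value for 4 samples. Chance flags about 1 in 20 such groups. The same library had the lowest reference muscle level, 5.24, and the lowest share of counts on the 43 genes, 2.46%.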

How the results depend on the processing

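No paired analysis was possible because the labels give the 2 genotypes no shared replicate numbers. By genotype alone, 110 genes were called in all; DESeq2 called 984, limma on TPM 28, and edgeR 167 without WT replicate 2 and knockout replicate 3 and 8 to 170 with 1 library left out. Of the 43 muscle genes 0 were called; DESeq2 called 8 and limma on the authors' matrix 1. The median over the 9 slow genes, 5 of which needed knockout libraries to pass the filter, was 2.62. It was 1.64 with limma on TPM and 1.86 without those 2 libraries. Beside the reference level, 26 genes were called, 2 to 58 with 1 library left out and 10 without those 2 libraries, an alternative chosen for this fit after seeing the data. Of the 43 genes 1 was called there, 0 to 2 with 1 library left out (Myl2 and Myl3 without WT replicate 4) and 0 without those 2. There the median of all members, -0.02, was -0.071 to 0.015 with 1 library left out and 0.022 without those 2, and the slow median, 2.87, was 2.26 to 3.72 and 2.16. Single genes changed sign with 1 library left out: Myl1 (-0.036 to 0.66), Casq1 (-0.071 to 0.65), Pvalb (-0.17 to 0.45), Atp2a2 (-0.32 to 0.21, also 0.014 with upper quartile scaling and 0.029 with length offsets) and the Casq1 over Casq2 ratio (-0.37 to 0.23). The cause of these changes was not tested. With 4 libraries a group, the exact test of a pair cannot go below 0.0286, and the slow genes rest on few counts.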
